A study of Rattus norvegicus with 119 samples.

Results

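Cdh1, Cdh2, Cdh3 and Cdh13 encode E-cadherin, N-cadherin, P-cadherin and T-cadherin, adhesion proteins of the cell surface. These 4 genes were taken as every probe whose gene symbol on the array platform is one of them, which gave 5 of the 30367 probes and 4 of the 16951 named genes: 1 probe each for Cdh1, Cdh2 and Cdh3, and 2 for Cdh13. The genes were chosen by measured values of these same arrays, namely their differences between treated and vehicle animals, so those differences are given below as a description and support nothing.

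Cadherins hold neighbouring cells together through calcium-dependent contacts between their outer domains. In the classical members E-, N- and P-cadherin the cytoplasmic tail binds catenins, which link the contact to actin. E-cadherin is the main cadherin of epithelia, P-cadherin is found mostly in basal epithelial layers, and N-cadherin is typical of nerve, muscle and mesenchyme. T-cadherin has no cytoplasmic tail, is held in the membrane by a lipid anchor, binds adiponectin, and is best known from endothelium and smooth muscle.

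Gene expression was measured in the bladder lining of Sprague-Dawley rats of both sexes, scraped from the opened bladder with a scalpel, on 1-colour Agilent arrays. Vehicle animals received 0.5% methylcellulose by mouth, and the others received pioglitazone at 16 mg/kg/day (low dose), pioglitazone at 63 mg/kg/day (high dose) or rosiglitazone at 10 mg/kg/day, daily for 3, 28 or 90 days. Both drugs are thiazolidinediones, which activate the nuclear receptor PPAR-gamma. All animals were killed 1 day after the last dose, and their ages are not given in the sources used here. The 4 treatments, both sexes and 3 dosing times make 24 groups, 20 with 5 arrays and 4 with 4. The submitters had marked 3 arrays as not passing quality control, and the other 116 of 119 arrays were used: 30 from vehicle animals, 28 from each pioglitazone dose and 30 from rosiglitazone animals. The labels do not say which samples share a cage, a litter or a processing day.

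The array medians lay between 6.40 and 6.63 (log2 signal), and an array's median correlation with all others had a middle value of 0.980. The lowest arrays were high-dose pioglitazone female day 3 replicate 3 at 0.817 and low-dose pioglitazone female day 28 replicate 5 at 0.861. The tissue label was checked against marker genes. All 12 urothelial markers were measured, and each had a mean signal above at least 85.7% of all probes. Genes of other cells were measured too: the mean of 12 smooth muscle markers ranged over single arrays from 6.89 to 13.82 in the vehicle arm, 7.05 to 14.07 with low-dose pioglitazone, 6.89 to 15.01 with high-dose pioglitazone and 6.56 to 14.97 with rosiglitazone. A brighter probe is not necessarily a more abundant transcript, so these ranks and those below are only a guide to signal strength, and the levels of the cadherins are not compared with each other. In these scrapings, fewer cells of a type and less RNA per cell cannot be told apart.

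Certain arrays stood apart for more than 1 of these genes. Vehicle male day 3 replicate 3 had Cdh1 at 12.19, against 14.02 to 14.42 in the other arrays of its group, Cdh13 at 10.90 and 9.80, against 8.52 to 8.81 and 7.60 to 8.08, and Cdh3 at 13.15, against 9.63 to 10.68. Rosiglitazone female day 90 replicate 1 had Cdh1 at 12.25 (others 13.84 to 14.38) and Cdh3 at 12.11 (others 9.09 to 9.34). Their means of the 12 urothelial markers, 14.07 and 14.05, were the second lowest and the lowest of 116 arrays. The first was second from the top in fibroblast markers (11.84) and the second was second from the top in smooth muscle markers (14.97). These arrays were picked out after their values were seen, and the main results that rest on them are given with and without them.

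Both probes of Cdh13 had lower means in treated than in vehicle animals with all 3 treatments, and so did the Cdh3 probe. Averaged over sexes and dosing times, the Cdh13 difference lay between -0.73 and -0.88 (log2), a signal 1.66-fold to 1.83-fold lower. The Cdh3 difference was -0.58 with low-dose pioglitazone, -0.80 with high-dose pioglitazone and -0.49 with rosiglitazone. Cdh1 and Cdh2 lay within 0.20 of vehicle on the log2 scale with each treatment, and every 95% interval of theirs held 0.

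Cdh13, the gene of T-cadherin, was read by the probes A_64_P052791 (the brighter) and A_44_P561084 (the dimmer). The brighter probe ranged from 7.35 to 10.93 with a median of 8.79 (log2 signal) over 30 vehicle arrays. It ranged from 7.12 to 10.23 with a median of 8.08 over 28 low-dose pioglitazone arrays, and from 6.82 to 10.51 with a median of 7.93 over 28 high-dose pioglitazone arrays. Over 30 rosiglitazone arrays it ranged from 6.99 to 9.61 with a median of 8.26. The arms overlapped, and all 3 treated medians lay below the vehicle median. The difference from vehicle was -0.74 ± 0.18 with low-dose pioglitazone, -0.83 ± 0.18 with high-dose pioglitazone and -0.86 ± 0.17 with rosiglitazone (log2, SE from the fit). The dimmer probe gave -0.73 ± 0.14, -0.85 ± 0.14 and -0.88 ± 0.14 in the same order. The probes followed each other over arrays within groups (Pearson r 0.88, Spearman rho 0.88, n = 116), so their differences are 1 observation read by a pair of probes.

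In the female 90-day groups, the brighter Cdh13 probe measured 9.48, 8.20, 9.69, 8.19 and 10.00 in vehicle animals and 7.91, 6.82, 7.01, 7.38 and 7.89 with high-dose pioglitazone. Every treated array lay below every vehicle array, and the means were 9.11 ± 0.86 and 7.40 ± 0.50 (SD, n = 5 each), a difference of -1.71 or 3.27-fold. The dimmer probe in the same animals measured 7.94, 7.34, 8.50, 7.40 and 8.85 in the vehicle group and 7.07, 6.12, 6.22, 6.59 and 6.92 in the treated group. Those groups did not overlap either, with a difference of -1.42. In the male 90-day groups the brighter probe measured 8.10, 8.61, 9.83, 9.39 and 8.87 with vehicle and 7.02, 8.72, 6.89, 7.95 and 7.75 with high-dose pioglitazone. There 1 treated array, replicate 2, lay within the vehicle range, and the difference was -1.29.

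In the female rosiglitazone groups the most negative Cdh13 difference was at 28 days. Vehicle females then measured 7.88, 7.90, 8.86, 8.21 and 8.31 on the dimmer probe, and rosiglitazone females measured 6.87, 6.42, 5.73, 5.64 and 7.67. The groups did not overlap and differed by -1.77 (3.40-fold). The rosiglitazone males of that day differed by only -0.27 on the dimmer probe and by 0.17 on the brighter one, the single positive value among the 18 comparisons of that probe. Vehicle males at 28 days were the lowest vehicle group on both probes, at 8.09 ± 0.49 and 7.37 ± 0.29 (SD, n = 5).

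**Figure D1:**
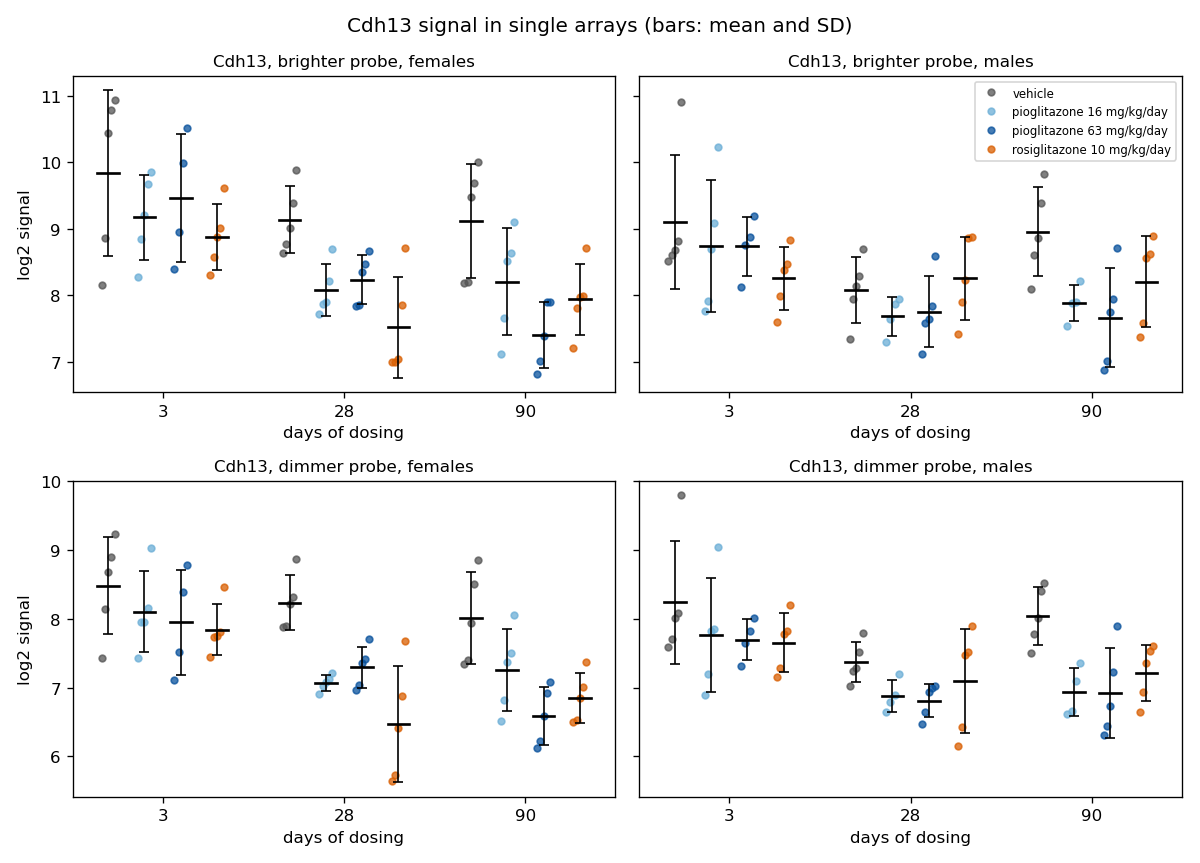
Cdh13 log2 signal of single arrays (points) by days of dosing, for the brighter probe A_64_P052791 (top) and the dimmer probe A_44_P561084 (bottom) in females (left) and males (right); horizontal bars are group means and error bars SD over 4 or 5 arrays. In females at 90 days, the high-dose pioglitazone points of the brighter probe sit between 6.82 and 7.91, all below the vehicle points, which start at 8.19.

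Over the 18 comparisons of a treated group with its vehicle group of the same sex and day, the Cdh13 difference was negative in 17 for the brighter probe and in 18 for the dimmer probe. All treated arrays lay below all vehicle arrays in 1 comparison of the brighter probe, with high-dose pioglitazone. For the dimmer probe this held in 2 comparisons with low-dose pioglitazone, 3 with high-dose pioglitazone and 1 with rosiglitazone. Over all probes and the 6 comparisons of each treatment, such separation below vehicle was found in 1.19%, 1.47% and 1.42% of cases for the low dose, the high dose and rosiglitazone. Separation above vehicle was found in 1.39%, 1.22% and 1.07% of cases, and in 0 comparisons of any of the 5 cadherin probes. Without the pair of arrays that stood apart, the brighter probe was negative in 15 of 18, since the males at 3 days turned from -0.36 to 0.09 with low-dose pioglitazone and from -0.37 to 0.09 with high-dose pioglitazone, and the dimmer probe in 18. The separated comparisons were then 2 and 7, with rosiglitazone females at 90 days, a group smaller without its replicate 1, added on both probes. The shares over all probes given above are for all arrays used and were not computed without the pair. The genes were chosen on these comparisons, so nothing is read from the counts.

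With high-dose pioglitazone, the Cdh13 difference averaged over the sexes was -0.37 at 3 days, -0.61 at 28 days and -1.50 at 90 days on the brighter probe. The dimmer probe gave -0.54, -0.75 and -1.27. Without vehicle male day 3 replicate 3, the 3-day value was -0.14 on the brighter and -0.34 on the dimmer probe. The other treatments gave closer values: on the brighter probe -0.51, -0.73 and -0.99 with low-dose pioglitazone, and -0.90, -0.72 and -0.96 with rosiglitazone. Their 3-day values were -0.29 and -0.68 without that array. The difference across days was tested by limma's F test for each treatment. For high-dose pioglitazone the brighter probe had an unadjusted p of 0.0266, which did not pass after adjustment over all probes (adjusted p 0.819), and the dimmer probe had an unadjusted p of 0.101. Without the pair of arrays that stood apart, the unadjusted p was 0.00613 and 0.0252, and neither passed (adjusted p 0.65 and 0.743). Over all probes that test called 0.00988% with high-dose pioglitazone, 0.00988% with rosiglitazone and 0% with low-dose pioglitazone. It called 0 of the 5 cadherin probes with any treatment, and with all arrays the brighter Cdh13 probe under high-dose pioglitazone was the 1 result below 0.05 before adjustment.

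By sex, the Cdh13 difference averaged over days was -1.25 in females and -0.48 in males with rosiglitazone on the brighter probe, and -1.19 and -0.56 on the dimmer probe. The female effect minus the male effect was -0.78 (95% interval -1.47 to -0.08) and -0.62 (-1.18 to -0.07). Both had an unadjusted p of 0.028 and did not pass after it in the limma fit (adjusted p 0.601). With low-dose and high-dose pioglitazone the same quantity was -0.26 and -0.33 on the brighter probe, with intervals that held 0. The test of the sex difference called 0.0659%, 0.0132% and 0.00329% of all probes for the low dose, the high dose and rosiglitazone, and 0 cadherin probes.

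Cdh3, the gene of P-cadherin, ranged from 9.58 to 13.15 with a median of 10.09 over 30 vehicle arrays and from 8.68 to 11.36 with a median of 9.69 with low-dose pioglitazone. It ranged from 8.62 to 11.82 with a median of 9.33 with high-dose pioglitazone, and from 8.80 to 12.11 with a median of 9.60 with rosiglitazone. The vehicle median lay above the other medians, and the arms overlapped widely. The differences were -0.58 ± 0.17, -0.80 ± 0.17 and -0.49 ± 0.16 (log2, SE). They were negative in 6 of 6 comparisons with each pioglitazone dose and in 5 of 6 with rosiglitazone.

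The most negative Cdh3 differences were in rosiglitazone males at 3 days (-1.25) and in high-dose pioglitazone females at 90 days (-1.23). The latter animals measured 8.77, 9.11, 8.69, 8.62 and 9.25, against 10.10, 9.74, 10.66, 9.88 and 10.22 in the vehicle females. The groups did not overlap. Males at 90 days were also apart, with 9.41, 9.15, 8.63, 9.51 and 9.03 for the high dose against 9.83, 9.67, 10.27, 10.14 and 10.00. The 3-day value in males rests on vehicle male day 3 replicate 3 at 13.15, and without it was -0.65, so that the high-dose females at 90 days were the most negative. The other vehicle arrays of that group measured 9.99, 10.39, 10.68 and 9.63 and the rosiglitazone arrays 9.19, 9.83, 9.50, 9.72 and 9.36. With high-dose pioglitazone the 3 comparisons without overlap were females at 28 and 90 days and males at 90 days.

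The Cdh3 differences at 3, 28 and 90 days were -0.75, -0.62 and -1.03 with high-dose pioglitazone, and their F test across days gave an unadjusted p of 0.585. They were -0.79, -0.25 and -0.71 with low-dose pioglitazone (unadjusted p 0.368) and -0.61, -0.59 and -0.28 with rosiglitazone (unadjusted p 0.657). Without vehicle male day 3 replicate 3, the 3-day values were -0.45, -0.50 and -0.31 with high-dose pioglitazone, low-dose pioglitazone and rosiglitazone. The male values of that day went from -1.19, -0.99 and -1.25 to -0.59, -0.39 and -0.65. Without rosiglitazone female day 90 replicate 1, the rosiglitazone value at 90 days was -0.57 and that of females -0.90 (-0.32 with it). Those female groups did not overlap without that array, and no share over all probes was computed for this setting. The F tests then gave unadjusted p-values of 0.215, 0.401 and 0.662. With all arrays, the female minus the male effect on Cdh3 was 0.30, -0.03 and 0.19 for the low dose, the high dose and rosiglitazone. Each had a 95% interval that held 0. Without the pair of arrays that stood apart it was 0.10, -0.23 and -0.20, so the rosiglitazone value changed sign (limma adjusted p 0.973, 0.897 and 0.972). No dependence of the Cdh3 difference on day or sex passed the limma test.

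Cdh1, the gene of E-cadherin, ranged from 12.19 to 14.72 with a median of 14.20 over the vehicle arrays. Its range was 13.62 to 14.89 with a median of 14.07 with low-dose pioglitazone and 13.01 to 14.78 with a median of 14.09 with high-dose pioglitazone. With rosiglitazone it ranged from 12.25 to 15.94 with a median of 14.28. The 4 arms covered much the same levels. The differences from vehicle were 0.07, -0.07 and 0.08, with 95% intervals from -0.16 to 0.29, -0.30 to 0.16 and -0.14 to 0.30. Of its 18 comparisons 7 were negative and 11 positive, and without the pair of arrays that stood apart 10 and 8. In 1, low-dose pioglitazone males at 28 days, the treated arrays (13.95, 13.97, 14.00 and 13.97) all lay below the vehicle arrays (14.71, 14.18, 14.52, 14.10 and 14.26).

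Cdh2, the gene of N-cadherin, gave a weak signal, with a mean over all arrays above that of 12.5% of probes. It ranged from 4.16 to 5.81 with a median of 4.70 over vehicle arrays and from 3.96 to 6.21 with a median of 4.60 with low-dose pioglitazone. With high-dose pioglitazone it ranged from 4.09 to 6.83 with a median of 4.64, and with rosiglitazone from 3.65 to 7.20 with a median of 4.57. The highest treated arrays lay above every vehicle array while the medians stayed close. The differences were -0.04, 0.20 and -0.04, with 95% intervals from -0.34 to 0.27, -0.11 to 0.51 and -0.34 to 0.27, and 0 of 18 comparisons were without overlap.

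**Figure D2:**
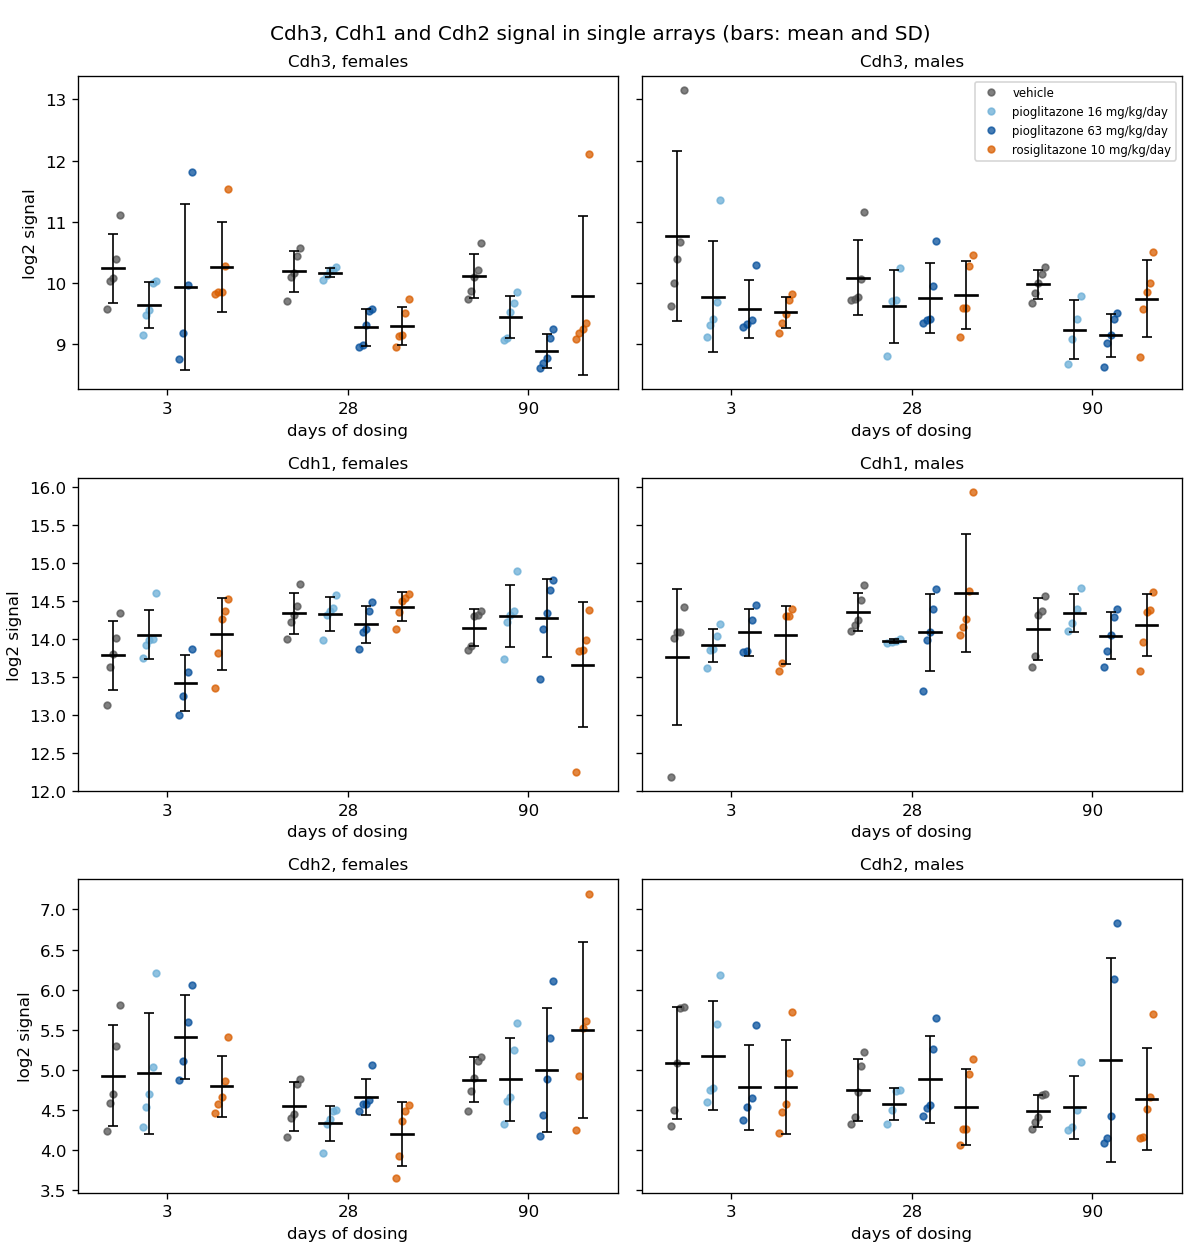
Log2 signal of Cdh3, Cdh1 and Cdh2 in single arrays (points) by days of dosing, with females on the left and males on the right; horizontal bars are group means and error bars SD over 4 or 5 arrays. In females at 90 days the high-dose pioglitazone points of Cdh3 lie between 8.62 and 9.25, below the vehicle points, while the Cdh1 and Cdh2 points of the treatments overlap vehicle there.

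In the limma fit over all probes, at an adjusted p under 0.05 in the contrast averaged over sexes and days, both Cdh13 probes were called lower with each treatment, and Cdh3 was called lower with high-dose pioglitazone. That is 2, 3 and 2 of the 5 probes with the low dose, the high dose and rosiglitazone, beside 0.547%, 1.79% and 1.85% of all probes called lower. In the other direction 0 cadherin probes were called, beside 0.846%, 1.47% and 1.5% of all probes. The genes were chosen on this contrast, so its calls are not a test of them. The call of the brighter Cdh13 probe with low-dose pioglitazone was lost when replicate 3 of the vehicle groups, or replicate 1 or 3 of the low-dose groups, was left out (-0.61, -0.69 and -0.70). The treatments share their vehicle arrays.

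**Figure D3:**
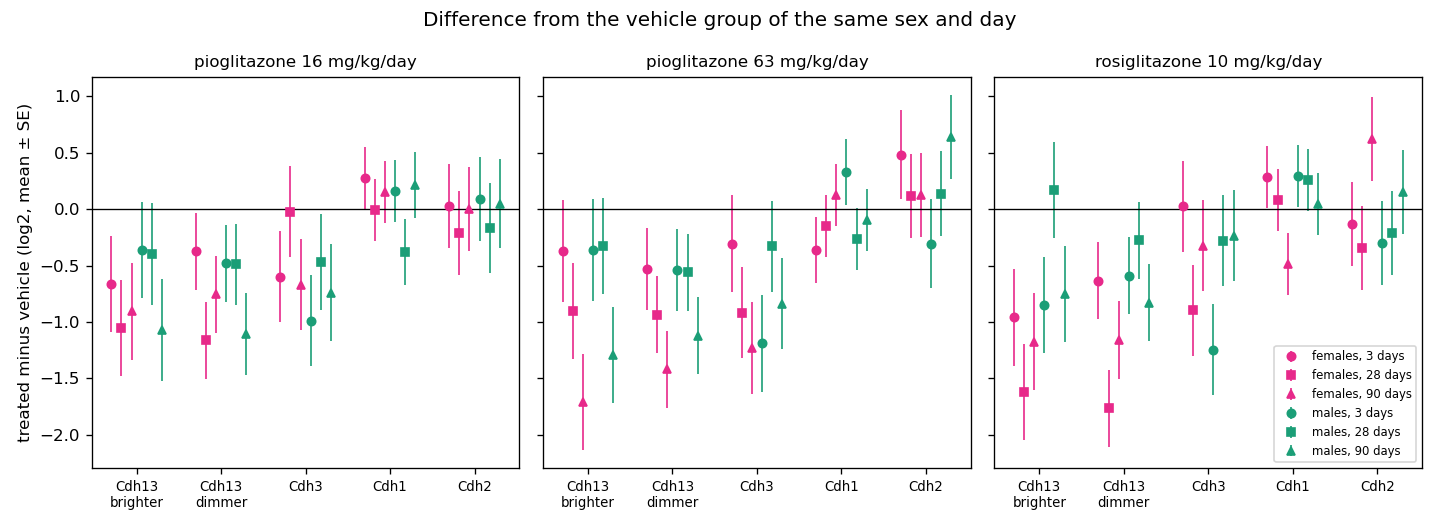
Treated minus vehicle difference (log2, mean ± SE from the fit) of each cadherin probe in the 6 combinations of sex (colour) and day (marker shape), 1 panel per treatment; the line marks no difference. With high-dose pioglitazone the brighter Cdh13 probe runs from -0.33 to -1.71, while Cdh1 lies between -0.36 and 0.33.

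The high and the low dose of pioglitazone were compared over sexes and days. The high minus the low dose gave -0.09 (95% interval -0.45 to 0.27) for the brighter and -0.12 (-0.41 to 0.16) for the dimmer Cdh13 probe. It gave -0.22 (-0.56 to 0.12) for Cdh3, -0.14 (-0.37 to 0.10) for Cdh1 and 0.24 (-0.08 to 0.55) for Cdh2. None passed the limma test or had an unadjusted p under 0.05, and 0% of all probes were called, while 1855 had an unadjusted p under 0.05. The intervals leave room for a dose difference of up to 0.45 lower on the log2 scale for Cdh13 and 0.56 lower for Cdh3. Rosiglitazone was given at a dose unlike either of these and was not set against pioglitazone.

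Vehicle animals alone show how the cadherins vary without treatment. The brighter Cdh13 probe averaged 9.36 in females and 8.72 in males, a difference of 0.65 (95% interval 0.16 to 1.14, unadjusted p 0.010, adjusted p 0.235), and the dimmer probe 8.24 and 7.88. Without the pair of arrays that stood apart, the difference was 0.80 on the brighter probe (unadjusted p 0.00125, adjusted p 0.131). On the dimmer probe it was then 0.49 (unadjusted p 0.0125, adjusted p 0.275). In Cdh1, Cdh2 and Cdh3 the female minus male difference was 0.01, 0.01 and -0.09, and -0.12, 0.07 and 0.10 without the pair. The test of vehicle females against males called 0.283% of all probes and 0 cadherin probes.

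Across time, the brighter Cdh13 probe averaged 9.47 at 3 days, 8.61 at 28 days and 9.04 at 90 days of vehicle dosing. The 3-day arrays measured 10.93, 10.78, 8.87, 8.16 and 10.44 in females and 8.68, 8.60, 10.90, 8.52 and 8.81 in males. Of these, 4 lay between 10.44 and 10.93 and the other 6 between 8.16 and 8.87, and among the vehicle groups the 3-day groups had the largest SDs on this probe (1.24 and 1.01). The difference of 28 from 3 days was -0.86 (adjusted p 0.0964), and -0.56 (adjusted p 0.185) on the dimmer probe. Cdh1 went the other way, from 13.77 to 14.35, a difference of 0.57 (adjusted p 0.0816). These 3 had unadjusted p-values of 0.00554, 0.0231 and 0.00386, and 0 cadherin probes passed after adjustment in any comparison of vehicle days. Over all probes, 2.92% were called for 28 against 3 days, 2.57% for 90 against 3 days and 0.0165% for 90 against 28 days. Fibroblast and urothelial markers also moved for 28 against 3 days. The 12 fibroblast markers had a median difference of -1.71, with 0 positive and 3 called lower. The 12 urothelial markers had a median of 0.48, with 12 positive and 2 called higher. The 12 smooth muscle markers had a median of -1.42, with 0 positive, 0 called and 0 at an unadjusted p under 0.05. Their part in the cadherin differences was not tested. Of the 55 results of the 5 probes in the tests of day, sex and dose, 0 were called by limma and 7 had an unadjusted p under 0.05. In the tests that held these 7, an unadjusted p under 0.05 was reached by 5647 of all 30367 probes for 28 against 3 days. It was reached by 3756 for vehicle sex, 2277 for the sex difference with rosiglitazone and 1727 for the day difference with high-dose pioglitazone.

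The order of the 24 group means shows where each gene was highest and lowest. The brighter Cdh13 probe was highest in vehicle females at 3 days (9.84) and lowest in high-dose pioglitazone females at 90 days (7.40), and the dimmer probe ran from vehicle females at 3 days (8.48) to rosiglitazone females at 28 days (6.47). Cdh3 ran from vehicle males at 3 days (10.77, with the array at 13.15 among them) to high-dose pioglitazone females at 90 days (8.89). Vehicle groups took 4, 5 and 4 of the top 6 places on these 3 probes and 0 of the bottom 6. Cdh1 was highest in rosiglitazone males at 28 days (14.61) and lowest in high-dose pioglitazone females at 3 days (13.42). Cdh2 ran from rosiglitazone females at 90 days (5.50, with replicate 1 at 7.20 among them) to rosiglitazone females at 28 days (4.20). For each of the 5 probes, 0 of the 23 steps between neighbours in the order exceeded the pooled SD within groups, which was 0.69 and 0.55 for Cdh13, 0.65 for Cdh3, 0.44 for Cdh1 and 0.60 for Cdh2.

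Without the pair of arrays that stood apart, vehicle male day 3 replicate 3 and rosiglitazone female day 90 replicate 1, the treatment differences averaged over sexes and days for the low dose, the high dose and rosiglitazone were -0.67, -0.75 and -0.82 for the brighter and -0.66, -0.79 and -0.83 for the dimmer Cdh13 probe, and -0.48, -0.70 and -0.49 for Cdh3. Cdh3 was then also called lower with rosiglitazone, beside 745 of all 30367 probes called lower in that setting (561 with all arrays). The rosiglitazone array left out had been picked partly for its high Cdh3, so nothing is read from this call. The vehicle differences of 28 from 3 days shrank to -0.63 for the brighter Cdh13 probe, -0.36 for the dimmer, 0.38 for Cdh1 and -0.06 for Cdh3 (-0.36 with them), and the sex difference of the rosiglitazone effect on Cdh13 became -0.99 and -0.80 (adjusted p 0.576).

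Within groups, Cdh1 moved with the urothelial markers, and Cdh13 and Cdh2 moved with markers of fibroblasts, endothelium, smooth muscle or nerve. These correlations were taken over 116 arrays after each group's mean was removed, with permutation p-values adjusted over 50 correlations. Cdh1 correlated with the mean of the 12 urothelial markers at r = 0.83 (rho 0.80) and with the 12 fibroblast markers at r = -0.57 (rho -0.55). The brighter Cdh13 probe correlated with fibroblast markers at r = 0.71 (rho 0.72), with 12 endothelial markers at r = 0.64 (rho 0.64) and with urothelial markers at r = -0.64 (rho -0.61). The dimmer probe gave r = 0.65 (rho 0.64), 0.70 (0.72) and -0.51 (-0.48). Cdh2 correlated with 6 nerve and Schwann cell markers at r = 0.86 (rho 0.84), with smooth muscle markers at r = 0.82 (rho 0.81) and with fibroblast markers at r = 0.78 (rho 0.77). Each of these had p = 1e-05, the smallest that 100000 permutations can give, and an adjusted p of 2.17e-05 for r and 2.38e-05 for rho. With the 2 farthest arrays left out the values of r were 0.76 and -0.55 for Cdh1, 0.72, 0.60 and -0.61 for the brighter Cdh13 probe, 0.65, 0.67 and -0.45 for the dimmer, and 0.85, 0.81 and 0.76 for Cdh2.

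Cdh3 tracked the marker lists less. Its correlation with urothelial markers was r = -0.54 (rho -0.40, adjusted p 0.000852 and 0.000375), and -0.35 without the 2 farthest arrays. With fibroblast markers it was r = 0.32 (rho 0.34, adjusted p 0.00316 and 0.0013), and with the 10 basal urothelial markers r = -0.11 (rho 0.03, adjusted p 0.488 and 0.785). Between the members, Cdh1 ran against the brighter Cdh13 probe (r = -0.45, rho -0.38, adjusted p 6.25e-05 and 0.000426) and against Cdh2 (r = -0.48, rho -0.38, adjusted p 2.17e-05 and 0.0004), with -0.39 and -0.42 when the 2 farthest arrays were left out. Cdh1 against Cdh3 gave r = -0.35 (adjusted p 0.0239), but rho was -0.11 (adjusted p 0.335) and r was -0.11 without the 2 farthest arrays, so that relation rests on them. Cdh1 and Cdh3 are neighbours in the RefSeq annotation of the rat assembly GRCr8, with 0 protein-coding genes between them.

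**Figure D4:**
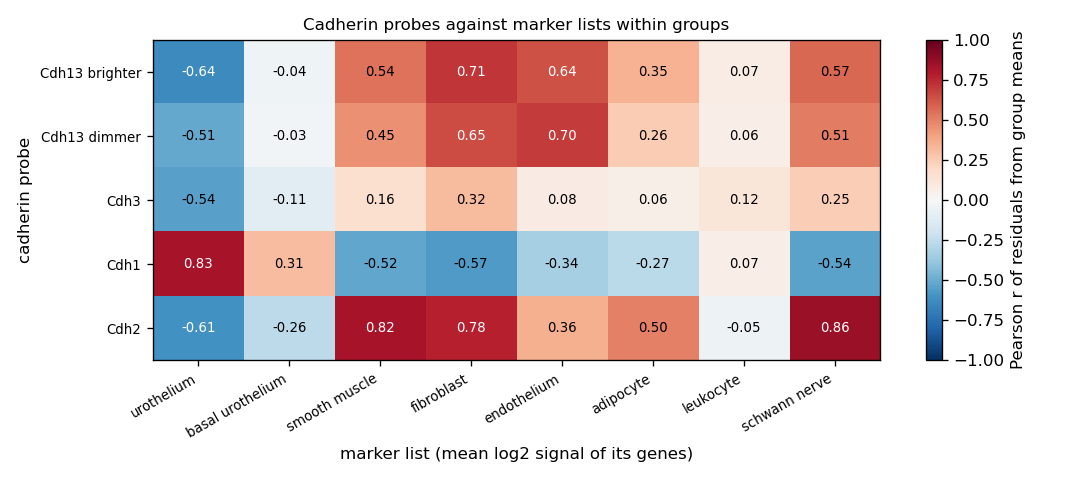
Pearson r between each cadherin probe (rows) and the mean log2 signal of each marker list (columns) over 116 arrays after removal of group means; red is positive and blue negative. Cdh1 has its highest value with urothelium (0.83), Cdh2 with Schwann cells and nerve (0.86), the brighter Cdh13 probe with fibroblasts (0.71) and the dimmer one with endothelium (0.70).

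The marker lists were also compared between treatments and vehicle. Over all 30367 probes, an unadjusted p under 0.05 was reached by 4267, 4226 and 5302 with the low dose, the high dose and rosiglitazone. The 12 fibroblast markers had median differences of -0.56, -0.16 and -0.49 with the low dose, the high dose and rosiglitazone, and 0 of 12 were called by limma, while 6, 0 and 4 had an unadjusted p under 0.05. Over arrays their mean ranged from 7.73 to 11.84 with vehicle, 7.56 to 11.43 with low-dose pioglitazone, 6.86 to 12.11 with high-dose pioglitazone and 6.87 to 11.12 with rosiglitazone. The 12 smooth muscle markers had medians of -0.51, 0.39 and -0.30 with 0 called and 0, 1 and 0 at an unadjusted p under 0.05. The 12 endothelial markers had medians of -0.12, -0.17 and -0.22, with 4, 3 and 3 positive and 3, 2 and 3 at an unadjusted p under 0.05. Of these 12, Cldn5, a tight junction protein of endothelium, fell with rosiglitazone (-0.71, adjusted p 0.0397). It was the 1 call of that list with any treatment. The mean of the endothelial list ranged from 7.07 to 8.73, 7.04 to 8.85, 7.04 to 8.17 and 7.10 to 8.21 in the 4 arms. The part of fibroblast and endothelial RNA in the Cdh13 and Cdh3 differences was not tested. With the smooth muscle mean as a covariate, the brighter Cdh13 probe differed by -0.67, -0.90 and -0.82 and Cdh3 by -0.56, -0.82 and -0.48.

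Of the 10 leukocyte markers, 5 fell with low-dose pioglitazone, 7 with high-dose pioglitazone and 6 with rosiglitazone, with medians of -0.40, -0.45 and -0.38. Cd74, a chaperone of class II antigen presentation, gave -0.49, -0.67 and -0.46 (adjusted p 0.0186, 5.99e-05 and 0.0126). Tyrobp, an adaptor of myeloid receptors, gave -0.41, -0.49 and -0.45 (adjusted p 0.0135, 0.00033 and 0.00107). Within groups the Pearson correlation of the leukocyte mean with the cadherin probes was at most 0.12, for Cdh3 (permutation test, adjusted p 0.488). The rank correlation of Cdh3 with that mean was rho 0.24 and passed (adjusted p 0.0242), while the other probes passed by neither measure. The lowest leukocyte mean per arm was 8.95, 8.68, 8.11 and 8.54 and the highest 10.20, 10.14, 9.75 and 9.92, in the order vehicle, low dose, high dose and rosiglitazone. Their part in the cadherin differences was not tested.

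Of the 12 urothelial markers, 12, 9 and 10 had a positive difference with the low dose, the high dose and rosiglitazone. The medians were 0.19, 0.09 and 0.12, and 5, 2 and 1 had an unadjusted p under 0.05. The part of urothelial RNA in the cadherin differences was not tested. Krt19, a keratin of simple epithelia, rose with each treatment (0.43, 0.34 and 0.46, adjusted p 0.00514, 0.0246 and 0.000598), and the other 11 of 12 did not pass. The 10 basal urothelial markers had median differences of 0.06, -0.01 and 0.02, and 5, 5 and 7 of them were positive. Of these 10, Krt15, a basal keratin, fell with high-dose pioglitazone (-0.52, adjusted p 0.000171) and rosiglitazone (-0.50, adjusted p 0.000211), and the others were not called, with 3, 3 and 2 of the 10 at an unadjusted p under 0.05. None of the 7 adipocyte and 6 nerve markers was called, with 0, 2 and 0 adipocyte markers and 0 nerve markers at an unadjusted p under 0.05.

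The genes that act with cadherins mostly stayed without a call. Of 19 other cadherin genes listed, 17 were measured and 0 were called with any treatment, with 0, 0 and 1 at an unadjusted p under 0.05. Their median difference was -0.02, 0.02 and -0.05, beside 0.01, 0.00 and 0.00 over all probes. Of 28 catenins and other adherens junction partners, 25 were measured. With high-dose pioglitazone Lima1, an actin-binding protein that links to the cadherin-catenin complex, fell (-0.50 ± 0.15, SE, adjusted p 0.0347), and it was the 1 call of that list, whose medians were -0.04, -0.03 and -0.03. At an unadjusted p under 0.05 stood 7, 7 and 6 of the 25, beside 4267, 4226 and 5302 of all 30367 probes. The desmosome list, with the desmosomal cadherins, had 11 of 13 genes measured and 0 called, with 1, 1 and 0 at an unadjusted p under 0.05.

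Of 10 transcription factors that repress epithelial genes such as Cdh1, 0 were called and 2, 3 and 2 had an unadjusted p under 0.05, with medians of -0.22, -0.09 and -0.15. Of 10 factors that maintain epithelial expression, Foxa1, a forkhead factor of urothelium, fell at the high dose of pioglitazone (-0.42 ± 0.12 SE, adjusted p 0.0219), while the others were not called. T-cadherin binds adiponectin, and of the 5 genes listed for adiponectin, its receptors and their adaptors 4 were measured and 0 were called, with 0, 1 and 1 at an unadjusted p under 0.05. In vehicle animals, Jup, a catenin shared by desmosomes and adherens junctions, was called higher for 90 against 3 days. Twist1, a repressor of Cdh1, was called lower for 28 against 3 days. Of the marker lists, Upk1a and Upk3a rose and Col1a1, Col1a2, Dpt and Retn fell for 28 against 3 days. For 90 against 3 days, Upk1a, Gata3, Krt15, Tie1 and Cd74 rose and Col1a1, Col1a2 and Col3a1 fell. A link between Twist1 and Cdh1 was not tested.

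By likeness over the 116 arrays (Pearson r after removal of group means), the named genes nearest to Cdh1 were Mgat4a (0.89), a glycosyltransferase, Paqr5 (0.88), Tmem184a (0.88), the sorting receptor Sorl1 (0.88) and the potassium channel Kcnk1 (0.87). Nearest to the brighter Cdh13 probe were Acvrl1 (0.79), a receptor for bone morphogenetic proteins, Dchs1 (0.77), a giant cadherin, Tcf4 (0.77), a transcription factor, Igfbp4 (0.76) and Creb3l1 (0.75). Nearest to Cdh2 were the calcium channel subunit Cacna1c (0.90), the growth factor Fgf2 (0.90), Akap6 (0.90), Flt4 (0.89), a receptor for vascular endothelial growth factors, and Filip1 (0.89). Nearest to Cdh3 were Ptk7 (0.86), a receptor of the tyrosine kinase family, Sfxn3 (0.77), Sema3c (0.76), a secreted semaphorin, Rpp25 (0.75) and P3h1 (0.75), a collagen prolyl hydroxylase. These values describe the arrays and share each array's tissue content.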

How the data were processed

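Each array held urothelial RNA of 1 sample, labelled with Cy3. The authors deposited 1 table of log2 signals, 1 column per sample. The submitters' processing notes name limma, with no version or role, and the background correction and normalisation are not given in the sources used here. Direction was taken from the values, which are not centred per gene. Of 30367 probes, 20369 have 1 gene symbol and 9998 none, and 17245 were matched to RefSeq accessions. The files name no genome build, so no coordinates are given, and the RefSeq table of GRCr8 served for gene names and for which genes neighbour each other.

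All 30367 probes entered 1 fit in limma 3.58.1 (R 4.3.3) with 1 mean per group over 116 arrays, no filter on low signal, and a variance trend (92 residual and 4.63 prior degrees of freedom). Treated groups were compared with the vehicle group of the same sex and day, singly and averaged. Effects were compared between sexes and days, doses with each other, and vehicle groups by sex and day. Within a contrast, Benjamini-Hochberg adjustment ran over all probes, and an adjusted p-value under 0.05 was called. The p-values set a difference against the spread between these samples, and the number of samples limits the precision. A gene with several probes in a list was represented by its brightest. Tables and permutation tests used Python 3.11.15, pandas 2.3.3, numpy 2.4.6 and scipy 1.17.1, and plots matplotlib 3.10.9. The fit was tested on simulated data.

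The text names every probe of the 4 cadherins, up to 3 called genes of each list per treatment with the smallest adjusted p, and the 5 genes nearest to each cadherin. Jup, Twist1 and the marker genes called between vehicle days were added after their values were seen. So was the choice of Cd74 and Tyrobp among the leukocyte genes so named. The members and lists were chosen with earlier results of these data known. The alternatives were quantile normalisation, centring on the 75th percentile, leaving out the 25 percent of probes with the lowest signal, that together with 1 probe per gene, no trend, array weights, the failing arrays, leaving out arrays or replicates, groups compared only, a replicate block and a smooth muscle covariate. Over 86 pairs of samples with the same replicate number the mean correlation was 0.027, and 31 pairs exceeded 0.1. Over 344 pairs with different numbers the mean was -0.005, and 99 exceeded 0.1. The main fit did not use the numbers as pairs. A mean over pairs cannot show whether some samples share a cage or a processing day.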

Additional observations from a re-analysis of the deposited data

Results flagged for a closer look

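Within 120 combinations of a probe and a group, 11 values, from 8 different arrays, lay far from the others of their group by Dixon's criterion, and chance alone marks about 1 in 20 groups. For Cdh1 these were vehicle male day 3 replicate 3 (12.19, the others 14.02 to 14.42), rosiglitazone female day 90 replicate 1 (12.25, the others 13.84 to 14.38) and low-dose pioglitazone female day 3 replicate 5 (14.61, the others 13.76 to 14.00). For Cdh13 it was vehicle male day 3 replicate 3 on both probes (10.90, the others 8.52 to 8.81, and 9.80, the others 7.60 to 8.08).

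For Cdh3, 5 arrays stood above their group. They were vehicle male day 28 replicate 1 (11.15), replicate 5 of low-dose pioglitazone males at 3 days (11.36), replicate 1 of high-dose pioglitazone males at 3 days (10.29), rosiglitazone female day 3 replicate 5 (11.54) and rosiglitazone female day 90 replicate 1 (12.11). For Cdh2, high-dose pioglitazone female day 28 replicate 3 stood above the others at 5.06 (the others 4.49 to 4.62).

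Among the arrays that failed quality control and were not used, high-dose pioglitazone female day 3 replicate 2 had the dimmer Cdh13 probe at 10.09 and Cdh2 at 5.88, above all vehicle arrays of its sex and day (at most 9.23 and 5.81). Low-dose pioglitazone male day 90 replicate 5 had Cdh2 at 5.71 (vehicle at most 4.70).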

How the results depend on the processing

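The dimmer Cdh13 probe kept its calls with all 3 treatments under every alternative run, and the brighter one kept them with high-dose pioglitazone and rosiglitazone. With low-dose pioglitazone the brighter probe lost its call without vehicle replicate 3, low-dose replicate 1 or low-dose replicate 3 (range over replicates left out -0.88 to -0.61). The Cdh3 difference with low-dose pioglitazone was not called as reported. It was called with the lowest 25 percent of probes left out (-0.58, adjusted p 0.0408) and with that and 1 probe per gene together (-0.58, 0.0363). Array weights (-0.49, 0.0029), leaving out the 2 arrays of lowest correlation (-0.58, 0.0425) and fitting only the groups compared (-0.58, 0.0342) also gave a call. So did leaving out vehicle replicate 4, low-dose replicate 5, high-dose replicate 4 or rosiglitazone replicate 1. Over all 20 replicates left out, called or not, this Cdh3 difference ranged from -0.65 to -0.46. With rosiglitazone Cdh3 was called with array weights (-0.47, 0.00622) and without rosiglitazone replicate 1 (-0.55, 0.0437). It was also called without the 2 arrays outlying for 2 genes, chosen after seeing the data (-0.49, 0.022). Without that pair 1281 of all probes were called with rosiglitazone, against 1018 with it. Over all 20 replicates left out, called or not, the Cdh3 difference with rosiglitazone ranged from -0.56 to -0.37. The cause was not tested. With the failing arrays included, the uncalled Cdh1 difference with low-dose pioglitazone changed sign, from 0.07 to -0.12.

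Over all probes, 423, 992 and 1018 were called with the low dose, the high dose and rosiglitazone, against 3485, 2315 and 2458 with array weights and 71, 321 and 175 with the failing arrays included. Without the 2 arrays of lowest correlation, 706 were called with the low dose and 1716 with rosiglitazone, and 711 with the low dose when only the groups compared were fitted. Leaving out replicates gave 149 to 624, 580 to 1174 and 647 to 1157. The share called lower moved from 55.1% to 41.3% with array weights for rosiglitazone and from 54.9% to 65.4% with the failing arrays for the high dose. The main fit did not use replicate numbers as pairs. The fit with a replicate block gave -0.73, -0.82 and -0.86 for the brighter Cdh13 probe and -0.58, -0.80 and -0.49 for Cdh3. With the block 389, 953 and 978 probes were called. The block changed no call of the 5 cadherin probes.

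For the other contrasts the count over all probes ranged over the alternatives from 0 to 861, 0 to 51 and 0 to 52 for the sex difference of the 3 treatments (20, 4 and 1 as reported), from 0 to 180 for dose (0), from 6 to 714 for vehicle sex (86), from 62 to 1450 for 28 against 3 days (888), from 128 to 1952 for 90 against 3 days (780) and from 1 to 197 for 90 against 28 days (5). For the day difference of the 3 treatments it ranged from 0 to 10, 0 to 59 and 0 to 10 (0, 3 and 3). The 55 cadherin results in these contrasts were repeated 1727 times and 0 were called. Of 2826 repeats of a single comparison, 5 moved by over 1 SD. Detection above background was not analysed here, so how far Cdh2 lies above it is unknown.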
